A study of Mus musculus with 6 samples.

Results

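Collagen genes were followed in tumor RNA of BALB/c mice that had received 4T1 cells, a line from a mammary carcinoma of the same strain. They were taken by symbol, as Col, a type number, a and a chain number. The symbol rule used no measured value, but earlier results of these data were known when it was set. Of the 16763 genes of the deposited table, 44 matched, and 43 of these encode collagen chains. The other match, Col4a3bp, encodes a ceramide transfer protein named for a collagen it was found to bind, and it was set apart. The 43 chains comprised 11 fibrillar chains, 6 basement membrane chains and 26 others. Among the others were 8 FACIT chains (which sit on the surface of fibrils), 6 beaded filament chains, 4 transmembrane chains, 3 network-forming chains, 2 multiplexins and 3 remaining chains. The model group was tumor-bearing mice without DMDD liposome, and the other group was tumor-bearing mice given DMDD liposome. DMDD is named in the labels by its abbreviation only, and liposomes are lipid vesicles that carry a compound. Each group had 3 libraries. The labels give the sex as male and call the animals rats in the sample descriptions, although the organism and strain are those of mouse. The labels give no age, dose, route or time of treatment. A graft of 1 cell line into its strain of origin is the model, and no library of untreated mammary tissue was used here. Nothing in the labels ties a library to a mouse. The p-values therefore cover the spread of these samples alone, and that spread may be technical.

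Collagens are extracellular proteins of 3 chains wound into a triple helix. Fibrillar collagens such as types I, III and V form the fibrils that bear tension, and in tumors fibroblasts of the stroma are their main source. Type IV collagen forms the sheet-like network of basement membranes with laminin, nidogen and perlecan, under epithelium and around vessels. The other types coat fibrils, anchor basement membranes to them or span the cell membrane.

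The libraries held 13037500 to 15616840 counts, and 3 counts stood for 0.192 to 0.230 CPM on these totals. Levels are given as CPM, counts scaled to library totals adjusted by TMM factors. Levels near 3 counts carry a large counting error. Some libraries stood apart in genes of other cell types. Model replicate 2 held 246 CPM of 9 epidermal keratinocyte markers against 9.58 to 15.7 CPM in the other libraries, and Krt1 had 591 counts there and 0 in every other library. DMDD liposome replicate 2 held 110 CPM of 8 fat cell markers against 11.6 to 42.9 CPM elsewhere. DMDD liposome replicates 1 and 3 held 149 and 288 CPM of 10 skeletal muscle markers against 34.6 to 65.5 CPM elsewhere. Acta1 alone held 44.8 and 97.1 CPM of these 2 sums. Of the 9 tested markers, 5 were highest in DMDD liposome replicate 3 and 2 in DMDD liposome replicate 1. The other 2, Myh1 and Tnni2, were highest in model replicate 3, at 14.05 and 31.4 CPM. Macrophage markers, 8 genes, summed to 1453 to 2701 CPM in model against 2771 to 3809 CPM with DMDD liposome, without overlap. By the fitted value 7 of the 8 were higher with DMDD liposome and 1 was lower. Only 1 of them, Lyz2, had groups that did not overlap (12.5%, beside 12.9% of all genes tested). Lyz2 took a large part of the sum, at 1017, 646 and 332 CPM in model against 1734, 1108 and 1111 CPM with DMDD liposome. In bulk tumor RNA, fewer cells of a type and less RNA per cell cannot be told apart. Defining epithelial markers of the carcinoma were present in all 6 libraries, with Epcam at 5637 to 17153 counts and Krt8 at 11713 to 26965 counts.

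Collagen chains together took 0.832% to 1.75% of all counts in a library. The 3 chains of types I and III, Col1a1, Col1a2 and Col3a1, made up 38.8% to 58.1% of those collagen counts. Between genes, levels were compared per length, as FPKM deposited by the authors (reads scaled to gene length and library depth), averaged over the 6 libraries. On that scale Col1a1 stood highest at 378 FPKM, followed by Col1a2 at 311 and Col3a1 at 282 FPKM. Col4a1 at 134, Col6a1 at 115 and Col4a2 at 78.5 FPKM came next, and then Col18a1 at 72.4, Col5a2 at 70.9 and Col7a1 at 56.8 FPKM. Across libraries the ranges of the top 3 overlapped, with Col1a1 at 266 to 700 FPKM, Col1a2 at 204 to 577 FPKM and Col3a1 at 174 to 527 FPKM. Within each of the 6 libraries Col1a1 was above both, at 1.09 to 1.30 times Col1a2 and 1.11 to 1.73 times Col3a1. The ranges of Col4a1 (93.1 to 172 FPKM) and Col6a1 (72.3 to 161 FPKM) overlapped too. Col1a1 ranked between 58 and 176 among all genes by FPKM, depending on the library.

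Of the 43 chains, 32 had enough counts to be tested and 11 did not. edgeR's quasi-likelihood test with Benjamini-Hochberg adjustment over 12891 genes called 0 of the 32 chains, and it called 0 genes in all (0%). The smallest adjusted p of a collagen was 0.626, shared by Col23a1 and Col8a2. At an unadjusted p under 0.05 there were 6 chains (18.8% of 32), beside 7.65% of all genes tested. Of the 6, Col8a1, Col8a2 and Col15a1 were higher in DMDD liposome and Col6a1, Col23a1 and Col24a1 were lower; such p-values were found for 4.34% of all genes higher and 3.31% lower. The count of 6 became 3 without DMDD liposome replicate 1 or without model replicate 2. It became 10 without DMDD liposome replicate 2 and 11 without model replicate 1. Over all genes the count of 986 became 480 of 13121 without DMDD liposome replicate 1 and 724 of 13075 without model replicate 2. That count became 1140 of 13132 without DMDD liposome replicate 2 and 2150 of 13159 without model replicate 1. For 5 chains every library of a group lay beyond every library of the other (15.6%), beside 12.9% of all genes tested. The authors' deposited table, made with DESeq2, called 0 of the 43 chains at an adjusted p under 0.05, beside 0.346% of all genes. DESeq2 run on the counts gave an unadjusted p under 0.05 for 10 chains and an adjusted p under 0.05 for 0. Over all 16763 genes its unadjusted p was under 0.05 for 1175. Each fold change below is therefore a measurement that did not pass the adjusted test. Log2 fold changes are DMDD liposome over model, with a standard error (SE) derived from edgeR's test. It is the absolute log2 fold change divided by the square root of the F statistic.

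**Figure D1:**
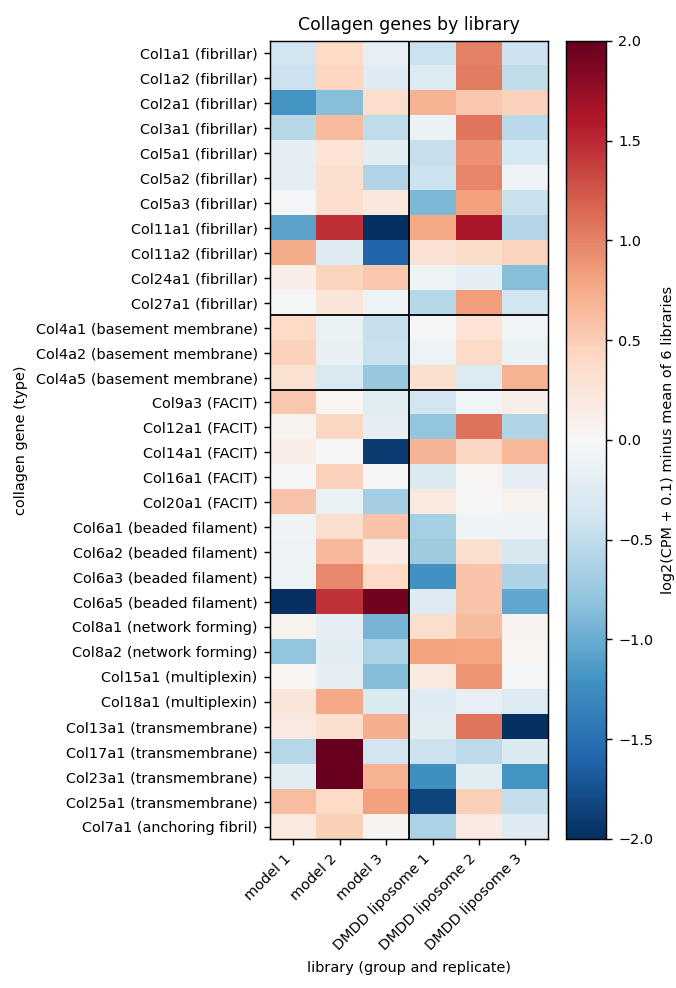
Level of each of the 32 tested collagen genes (rows, with their type) in each of the 6 libraries (columns), as log2(CPM + 0.1) minus the gene's mean over the libraries, with colors ending at 2 in either direction. Most fibrillar chains are high in replicate 2 of both groups, with DMDD liposome replicate 2 the highest library for 8 of 11, while Col17a1 and Col23a1 stand out in model replicate 2.

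All 11 fibrillar chains were tested, and they varied widely between libraries of the same group. Their median coefficient of variation was 32.0% in model and 58.1% in DMDD liposome, beside 14.9% and 11.3% over all genes tested. The summed level of the class was 4496, 8120 and 4840 CPM in model replicates 1 to 3 and 4766, 11990.3 and 4395 CPM in DMDD liposome replicates 1 to 3. Replicate 2 was the high library in each group, and the groups overlapped. Their means were 5819 ± 2000 CPM and 7050 ± 4282 CPM (SD, n = 3 each), a ratio of 1.21. The median log2 fold change was 0.28 over the 11 chains, beside 0.01 over all genes, with 9 chains positive and 2 negative. With limma-voom that median was -0.07. Without DMDD liposome replicate 2 it turned to -0.36 and the summed ratio to 0.787. For 8 of the 11 chains replicate 2 was the highest library of both groups, which was so for 14.5% of all genes tested. The labels do not say that a replicate number marks a shared batch.

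Fibroblast markers moved with this class across the libraries. The 12 listed genes summed to 785, 1084 and 736 CPM in the model libraries and to 661, 1554 and 661 CPM in the DMDD liposome libraries, and for 8 of the 10 tested members replicate 2 was again the highest of both groups. Postn, a matrix protein of activated fibroblasts, carried much of that sum, with 506 CPM in model replicate 2 and 864 CPM in DMDD liposome replicate 2 against 257 to 315 CPM in the other libraries. Pdgfra, a receptor of fibroblasts, did not share the pattern, at 140, 106 and 108 CPM in model against 140, 135 and 164 CPM with DMDD liposome. The fat cell markers were also highest in DMDD liposome replicate 2. Their part in the fibrillar levels was not tested.

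**Figure D2:**
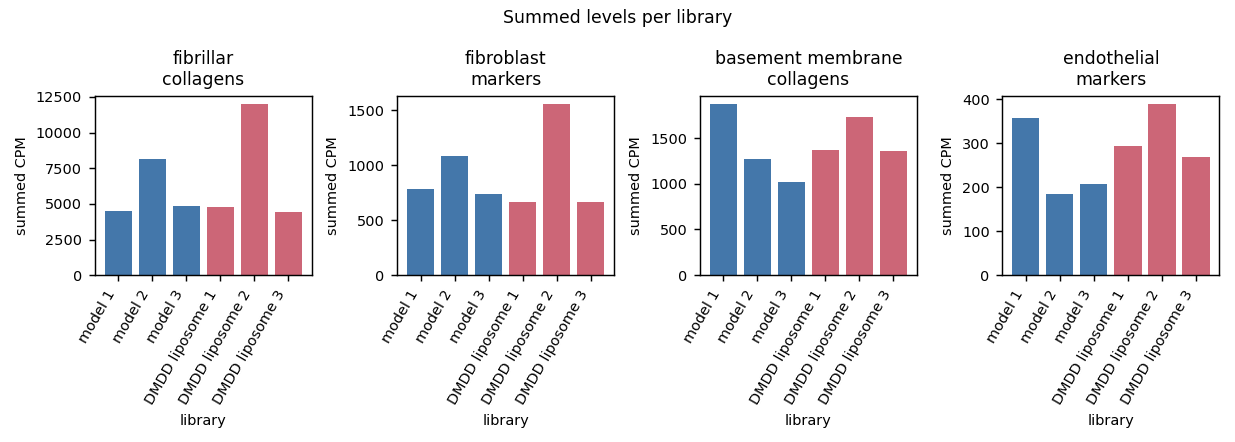
Summed CPM per library of the 11 fibrillar collagens, 12 fibroblast markers, 6 basement membrane collagens and 10 endothelial markers (model in blue, DMDD liposome in red). Fibrillar collagens and fibroblast markers are highest in DMDD liposome replicate 2 and next in model replicate 2, while basement membrane collagens and endothelial markers are highest in model replicate 1 and DMDD liposome replicate 2.

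Col1a1, which encodes the more abundant chain of type I collagen, measured 1592, 2742 and 1852 CPM in the model libraries and 1543, 4210 and 1568 CPM in the DMDD liposome libraries. DMDD liposome replicate 2 was the highest by far, and its fellow replicates lay below every model library. The log2 fold change was 0.24 ± 0.42 (SE), and it was -0.41 without DMDD liposome replicate 2. Col1a2, the partner chain, stood at 1142, 2086 and 1290 CPM against 1281, 3127 and 1085 CPM, the same 2 libraries being high (0.28 ± 0.42, and -0.36 without DMDD liposome replicate 2). Col3a1, whose type III fibrils mix with type I in soft tissue, measured 971, 2206 and 1002 CPM in model against 1304, 2972 and 980 CPM with DMDD liposome. The same libraries were high again, and its log2 fold change was 0.33 ± 0.48, and -0.29 without DMDD liposome replicate 2.

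Because Col1a2 and Col3a1 were both highest in replicate 2 of each group, their promoter windows are shown, each from 250 bases before to 50 bases after the annotated start. Sequences are from RefSeq on build GRCm38.p6, the C57BL/6J reference, while the submitters' processing notes name mm9 for the counts. Of the 43 chains, 34 had a window in that table, and Col1a1 and Col5a2 were among those not matched. Capitals mark every match, on either strand, to 3 short motifs known from core promoters: the CCAAT box, the TATA box, searched as TATAAA, and the GC box, searched as GGGCGG. The windows lie at chr6:4505368-4505667 (plus strand) for Col1a2 and chr1:45311288-45311587 (plus strand) for Col3a1.
Col1a2: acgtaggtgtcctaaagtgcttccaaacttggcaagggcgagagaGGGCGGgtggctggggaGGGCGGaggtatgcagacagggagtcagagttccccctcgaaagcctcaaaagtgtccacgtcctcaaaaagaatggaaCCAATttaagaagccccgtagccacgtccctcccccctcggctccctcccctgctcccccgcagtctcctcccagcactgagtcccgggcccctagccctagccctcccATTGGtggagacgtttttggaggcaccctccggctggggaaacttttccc
Col3a1: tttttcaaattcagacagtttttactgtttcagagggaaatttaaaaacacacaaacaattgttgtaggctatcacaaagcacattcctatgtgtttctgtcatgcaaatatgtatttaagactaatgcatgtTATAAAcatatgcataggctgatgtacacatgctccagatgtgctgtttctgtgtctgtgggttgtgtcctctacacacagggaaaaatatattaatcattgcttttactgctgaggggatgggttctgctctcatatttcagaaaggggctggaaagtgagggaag
The Col1a2 window held 2 GGGCGG and 2 CCAAT matches. The second CCAAT match is on the opposite strand and begins at the annotated start. Col3a1 held a single TATAAA match that begins 117 bases before the annotated start, and neither of the other motifs. Where transcription starts in these samples was not tested, and motifs beyond the windows would be missed. CCAAT was found in 37.4% of all 32851 windows, GGGCGG in 35.7% and TATAAA in 13.6%; in the 37 collagen windows the shares were 35.1%, 62.2% and 13.5%. No matches overlapped one another in these windows.

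Type V collagen, which sets the diameter of type I fibrils, followed the same libraries. Col5a1 measured 285, 389 and 278 CPM in model against 235, 610 and 253 CPM with DMDD liposome (0.21 ± 0.36). Col5a2 measured 386, 546 and 288 CPM against 326, 864 and 416 CPM (0.39 ± 0.38). Both were highest in DMDD liposome replicate 2, and both turned negative without it. Col5a3, a less common chain of the type, stood at 90.1, 115 and 106 CPM against 48.9, 162 and 67.3 CPM. Its DMDD liposome values lay on both sides of the model range (-0.17 ± 0.40).

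The remaining fibrillar chains were low. Col27a1, a long fibrillar chain known from cartilage, ran with the group above, at 14.4, 17.4 and 13.7 CPM in model against 9.85, 26.4 and 11.2 CPM with DMDD liposome (0.06 ± 0.37). Col11a1, a cartilage collagen chain also made by activated fibroblasts, had 13, 96 and 6 counts against 54, 93 and 21 counts, so that replicate 2 was again highest in both groups (0.68 ± 0.95). Col11a2, its partner in cartilage, had 142, 84 and 32 counts in model and 112, 111 and 130 in DMDD liposome, with model replicate 3 the lowest (0.46 ± 0.51). Its log2 fold change was 0.03 without model replicate 3 and 1.16 without model replicate 1. Col24a1, a fibrillar chain of developing bone and cornea, went the other way without overlap. It measured 4.52, 5.68 and 6.04 CPM in model against 3.90, 3.63 and 2.25 CPM with DMDD liposome, a log2 fold change of -0.73 ± 0.30 (edgeR unadjusted p = 0.0424, adjusted p = 0.641). Col2a1, the main collagen of cartilage, had 5, 8 and 20 counts in model and 24, 20 and 21 in DMDD liposome. Scaled to library size its groups did not overlap, with 1.31 CPM at most in model and 1.43 CPM at least in DMDD liposome (1.05 ± 0.51). Of the 9 cartilage and bone markers, 5 had fewer than 10 counts in every library and Comp had 5 to 12. The list summed to 159.5 to 177 CPM in model against 124 to 201 CPM with DMDD liposome, nearly all of it from Sox9, Runx2 and Ibsp, and its part in the Col2a1 counts was not tested.

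**Figure D3:**
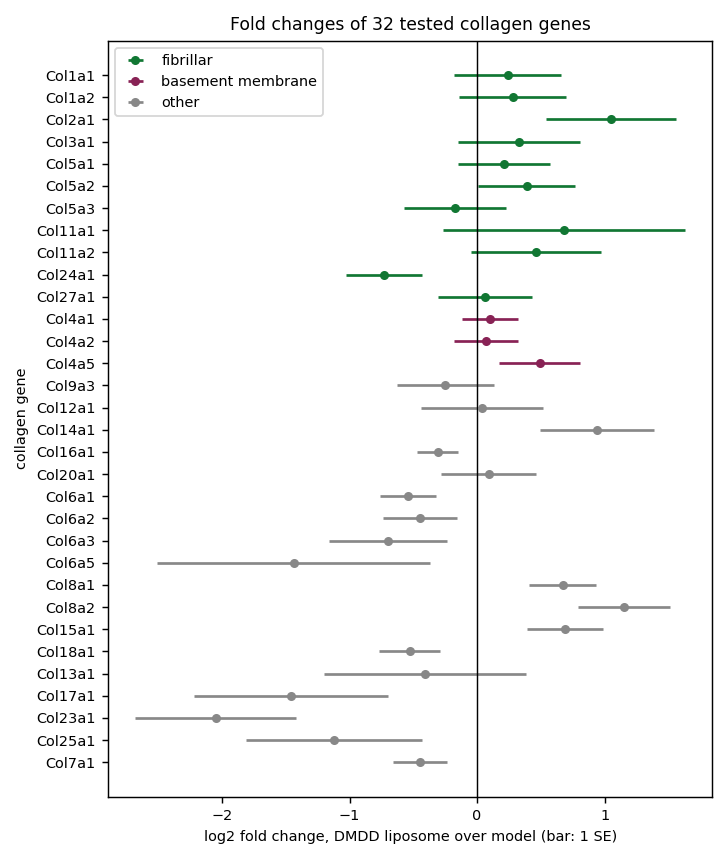
Log2 fold change of each tested collagen gene, DMDD liposome over model, with bars of 1 SE. The SE is derived from the F statistic of edgeR's quasi-likelihood test over 6 libraries. Fibrillar chains sit mostly right of 0 (median 0.28) with wide bars, and the other types mostly left (median -0.43), with Col8a1, Col8a2, Col14a1 and Col15a1 as the clearest exceptions.

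Basement membrane collagens differed little between the groups. The class summed to 1871, 1272 and 1020 CPM in model against 1370, 1726 and 1359 CPM with DMDD liposome, so that the model libraries enclosed all the DMDD liposome libraries. The means were 1387 ± 437 CPM and 1485 ± 209 CPM (SD, n = 3 each), a ratio of 1.07. The 3 tested chains had a median log2 fold change of 0.10, and 0 of them had an unadjusted p under 0.05. Endothelial markers ran beside this class: 10 genes summed to 357, 184 and 207 CPM in model and to 295, 389 and 269 CPM in DMDD liposome, with model replicate 1 and DMDD liposome replicate 2 highest, as for the collagens. Their part in the basement membrane levels was not tested.

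Col4a1 and Col4a2, which encode the chains of the type IV network found in nearly every basement membrane, carried almost the whole class. Col4a1 measured 1141, 794 and 632 CPM in model against 859, 1046 and 838 CPM with DMDD liposome (0.10 ± 0.22). Col4a2 measured 677, 444 and 363 CPM against 459, 645 and 453 CPM (0.07 ± 0.25). The 6 libraries stood in the same order for both genes. Per length, Col4a1 was 1.64, 1.74 and 1.70 times Col4a2 in the model libraries and 1.83, 1.58 and 1.80 times in the DMDD liposome libraries. The highest of these ratios was 1.16 times the lowest, while the level of each gene varied 1.81-fold and 1.87-fold over the same libraries.

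Both genes start within the same stretch of chromosome 8 and are read in opposite directions, so their windows are shown with the shared 78 bases (chr8:11312777-11312854) in capitals. These are again RefSeq windows of 250 bases before and 50 after each start, on build GRCm38.p6. Col4a1 lies on the minus strand (chr8:11312777-11313076) and Col4a2 on the plus strand (chr8:11312555-11312854).
Col4a1: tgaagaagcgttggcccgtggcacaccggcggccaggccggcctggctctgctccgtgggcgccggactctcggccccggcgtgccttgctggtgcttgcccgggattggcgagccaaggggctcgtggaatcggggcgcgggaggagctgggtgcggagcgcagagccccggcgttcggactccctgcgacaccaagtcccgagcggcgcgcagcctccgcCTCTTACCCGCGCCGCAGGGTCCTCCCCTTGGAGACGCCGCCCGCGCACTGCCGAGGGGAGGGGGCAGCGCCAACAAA
Col4a2: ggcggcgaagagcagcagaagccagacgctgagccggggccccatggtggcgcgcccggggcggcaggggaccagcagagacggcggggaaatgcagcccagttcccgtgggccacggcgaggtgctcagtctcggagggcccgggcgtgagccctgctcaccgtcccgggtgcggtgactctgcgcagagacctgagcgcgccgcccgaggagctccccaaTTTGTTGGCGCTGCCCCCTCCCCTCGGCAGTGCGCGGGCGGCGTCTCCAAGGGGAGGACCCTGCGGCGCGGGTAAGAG
The capitals of one are the reverse complement of the capitals of the other, and the annotated starts are 21 bases apart. Reads from the overlapping first bases cannot be assigned to a gene without strand, and no source used here states whether the counting used strand.

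Col4a5, a chain of kidney, skin and smooth muscle basement membranes, was lower, at 51.5, 33.5 and 24.6 CPM in model against 51.9, 34.5 and 67.0 CPM with DMDD liposome. DMDD liposome replicate 3 was highest and the groups overlapped (0.49 ± 0.32). Col4a6, its neighbour and partner, had 9, 0 and 2 counts in model and 9, 9 and 10 in DMDD liposome and was not tested. Col4a3 and Col4a4, the chains of the kidney filter, had at most 4 and 7 counts in any library.

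Beaded filament collagen VI, which links fibrils to the cell surface and basement membrane, was lower in DMDD liposome in all 4 tested chains by the fitted value, with a median log2 fold change of -0.62. The class summed to 895, 1453 and 1289 CPM in model against 541, 1119 and 791 CPM with DMDD liposome (1212 ± 287 CPM against 817 ± 290 CPM, SD, n = 3 each). The groups overlapped, because DMDD liposome replicate 2 lay above model replicate 1. Col6a1 measured 433, 567 and 677 CPM in model against 289, 430 and 436 CPM with DMDD liposome, a log2 fold change of -0.54 ± 0.22 (edgeR unadjusted p = 0.0387, adjusted p = 0.635). Only model replicate 1 lay among the DMDD liposome values, and the change was -0.37 without DMDD liposome replicate 1. Col6a2 stood at 196, 331 and 236 CPM against 128, 264 and 168 CPM (-0.45 ± 0.29, and -0.22 without model replicate 2). Col6a3, the long chain of the classic trimer, stood at 265, 552 and 374 CPM against 123, 424 and 186 CPM (-0.70 ± 0.46). Its log2 fold change was -0.38 without DMDD liposome replicate 1 and -1.37 without DMDD liposome replicate 2.

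Within type VI the chains did not keep a fixed ratio. Per length, Col6a1 was 2.39 to 4.20 times Col6a2, and Col6a3 was 0.231, 0.368 and 0.209 times Col6a1 in model and 0.160, 0.373 and 0.161 times in DMDD liposome. Replicate 2 was the library richest in Col6a3 relative to Col6a1 in each group. Col6a5, a later-described chain, had 0, 25 and 35 counts in model and 6, 11 and 3 in DMDD liposome (-1.44 ± 1.07), and model replicate 1, at 0, allows up to 0.230 CPM. Its log2 fold change was -2.05 without DMDD liposome replicate 2 and -0.78 without model replicate 3. Col6a4 and Col6a6 were not tested, with at most 12 and 13 counts in a library.

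**Figure D4:**
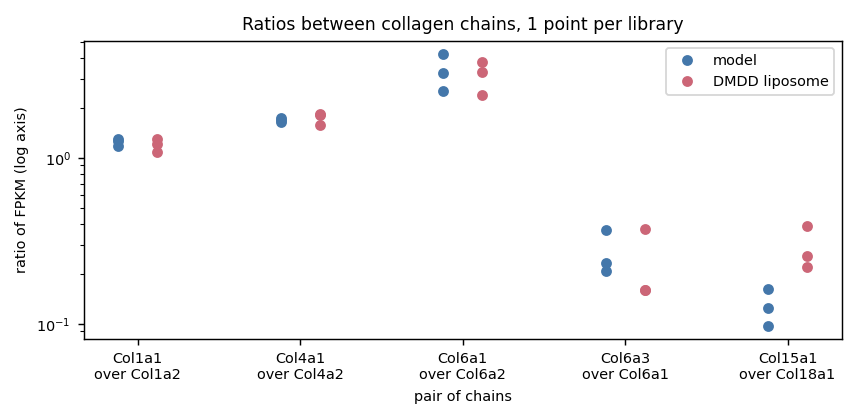
Ratio of FPKM between pairs of collagen chains in each library, on a log axis, with 3 points per group. Col1a1 over Col1a2 and Col4a1 over Col4a2 vary little, Col6a3 over Col6a1 is highest in replicate 2 of each group, and Col15a1 over Col18a1 separates model (0.0972 to 0.163) from DMDD liposome (0.220 to 0.387).

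FACIT collagens differed among themselves. The 5 tested chains had a median log2 fold change of 0.04, and the class summed to 910 ± 187 CPM in model against 889 ± 498 CPM with DMDD liposome (SD, n = 3 each). Col12a1, which coats type I fibrils under load, made up most of it and followed the fibrillar chains, at 575, 735 and 487 CPM in model against 319, 1164 and 363 CPM with DMDD liposome. Its fold change of 0.04 ± 0.48 went to -0.82 without DMDD liposome replicate 2. Col14a1, a related fibril-coating chain, was not highest in replicate 2 of either group. It measured 26.5, 24.3 and 6.30 CPM in model against 38.9, 32.3 and 38.5 CPM with DMDD liposome, higher in all 3 DMDD liposome libraries (0.94 ± 0.45, edgeR unadjusted p = 0.0724, adjusted p = 0.664). In the authors' deposited table it was 1.91-fold higher in DMDD liposome (p = 0.0297, adjusted p = 0.518). Col16a1, found at the border of fibrils and basement membranes, was at 256, 351 and 254 CPM against 209, 262 and 226 CPM (-0.31 ± 0.16), the groups overlapping through DMDD liposome replicate 2. Col20a1 and Col9a3 were low, at 1.90 to 4.68 CPM and 1.13 to 2.22 CPM over the 6 libraries.

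The network-forming collagen VIII was higher in DMDD liposome for both chains. These chains build the lattice under vessel endothelium and in the cornea and are also made by smooth muscle cells. Col8a1 measured 188, 157 and 94.4 CPM in model against 231, 281 and 189 CPM with DMDD liposome. All 3 DMDD liposome libraries lay above the model libraries, but the closest values, 188.4 and 188.9 CPM, were almost equal. The log2 fold change was 0.67 ± 0.26 (1.59-fold, edgeR unadjusted p = 0.0330, adjusted p = 0.629), and it was 0.42 without model replicate 3. Col8a2, the partner chain, had 16, 29 and 21 counts in model and 55, 51 and 33 counts in DMDD liposome. Every DMDD liposome library exceeded every model library, and the log2 fold change was 1.15 ± 0.36 (2.22-fold, edgeR unadjusted p = 0.0145, adjusted p = 0.626). Leaving out any 1 library moved it only between 1.02 and 1.37. In the authors' deposited table the adjusted p-values were 0.363 for Col8a1 and 0.370 for Col8a2. Pericyte and smooth muscle markers, 9 genes, summed to 406, 279 and 249 CPM in model against 399, 771 and 375 CPM with DMDD liposome. The groups overlapped. In DMDD liposome replicate 2, Acta2 and Tagln held 264 and 262 CPM of that sum. Des held 31.8, 4.46 and 63.5 CPM in the DMDD liposome libraries, high in the libraries with the most skeletal muscle markers. Of the 9 genes 8 were positive and 1, Notch3, was negative (-0.77 ± 0.20). The part of these markers in the collagen VIII levels was not tested. Col10a1, the collagen of growth plate cartilage, had at most 6 counts in a library.

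The multiplexins, which sit in basement membranes, went in opposite directions. Col15a1, known from vessel and muscle basement membranes, measured 80.7, 68.7 and 43.0 CPM in model against 89.7, 145 and 76.3 CPM with DMDD liposome. The groups overlapped only in that model replicate 1 lay above DMDD liposome replicate 3. The log2 fold change was 0.69 ± 0.30 (edgeR unadjusted p = 0.0498, adjusted p = 0.644), and 0.37 without DMDD liposome replicate 2. Col18a1, whose C-terminal fragment is endostatin, an inhibitor of vessel growth, measured 560, 797 and 388 CPM in model against 394, 423 and 391 CPM with DMDD liposome. The DMDD liposome libraries were tight and model replicate 3 lay just below them (-0.53 ± 0.24, edgeR unadjusted p = 0.0590, adjusted p = 0.644). Without model replicate 2 the change was -0.24. Per length, Col15a1 was 0.163, 0.0972 and 0.125 times Col18a1 in the model libraries and 0.257, 0.387 and 0.220 times in the DMDD liposome libraries, with no overlap. This pair was picked after the counts were seen, and its ratio was not tested.

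**Figure D5:**
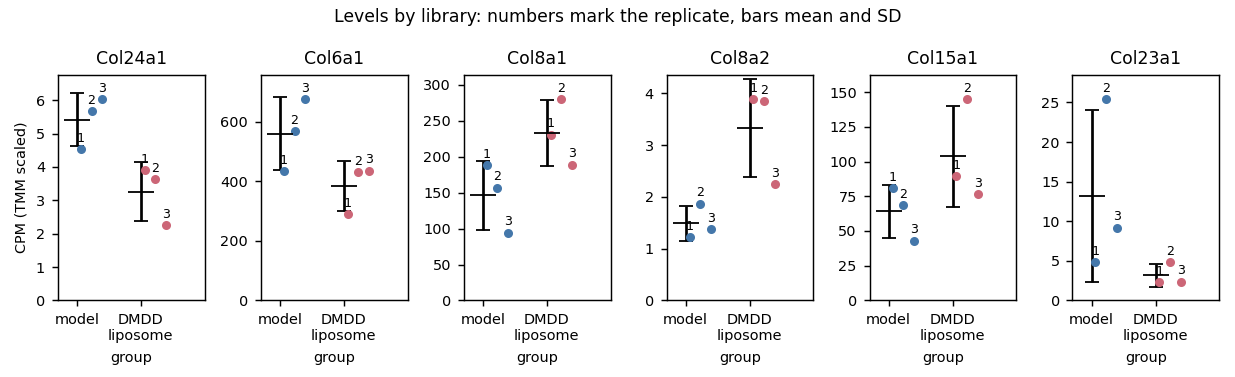
CPM in each library for the 6 collagen genes with an unadjusted edgeR p under 0.05, with each point numbered by replicate and bars for the mean and SD of 3 libraries. Col24a1, Col8a1 and Col8a2 show no overlap between the groups, while model replicate 2 sets much of the spread of Col23a1.

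Transmembrane collagens and the anchoring fibril collagen were lower in DMDD liposome by the fitted values. All 4 tested transmembrane chains were negative, with a median of -1.29, and all 4 were low. Col23a1, a membrane collagen shed from epithelial cells, had the smallest p of any collagen. It had 63, 395 and 140 counts in model and 33, 64 and 35 counts in DMDD liposome, or 4.83, 25.5 and 9.19 CPM against 2.34, 4.83 and 2.39 CPM. The groups touched at model replicate 1 and DMDD liposome replicate 2. The log2 fold change was -2.05 ± 0.63 (4.15-fold higher in model, edgeR unadjusted p = 0.0123, adjusted p = 0.626), and it was -1.15 without model replicate 2. In the authors' deposited table its adjusted p was 0.0673, just short of the threshold. Col17a1, a hemidesmosome protein of basal keratinocytes, had 21, 177 and 28 counts in model and 25, 22 and 29 in DMDD liposome. Model replicate 2 stood alone, and the log2 fold change of -1.46 ± 0.76 was 0.06 without it.

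Model replicate 2 is the library that held the epidermal keratinocyte markers, with Krt5 at 1919 counts there and at most 2 elsewhere. Epithelial tumor cell markers, 9 genes, summed to 4127, 6970 and 6233 CPM in model against 4422, 3841 and 4739 CPM with DMDD liposome, and were thus also high in model replicates 2 and 3. Their part in the levels of Col17a1 and Col23a1 was not tested. Col7a1, which forms the anchoring fibrils beneath epithelium, was abundant, at 586, 709 and 532 CPM in model against 330, 576 and 429 CPM with DMDD liposome. DMDD liposome replicate 2 lay within the model range (-0.45 ± 0.21, edgeR unadjusted p = 0.0691, adjusted p = 0.659). Col13a1 and Col25a1, both membrane collagens, had 1 to 18 and 1 to 15 counts per library (-0.41 ± 0.79 and -1.12 ± 0.69).

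The 11 chains too low to test had at most 20 counts in any library. They were Col4a3, Col4a4 and Col4a6 of basement membranes, Col9a1, Col9a2 and Col22a1 of the FACIT type, and Col6a4, Col6a6, Col10a1, Col26a1 and Col28a1. The highest of them was Col28a1, with 20 counts in DMDD liposome replicate 3 and 1 in model replicate 3. Col22a1, a chain of muscle-tendon junctions, had 4 counts in DMDD liposome replicate 3 and 0 in the other 5 libraries. That library also held the most skeletal muscle markers, and their part in the count was not tested. Col4a3bp, the matching gene that is no collagen, measured 156 ± 21.3 CPM in model against 136 ± 13.8 CPM with DMDD liposome (SD, n = 3 each), with overlap (-0.20 ± 0.13).

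Genes that make, process, bind and break down collagen were read from the same fit, as lists. Of 21 genes for folding, hydroxylation and export of collagen chains, 17 had positive and 4 negative fold changes, with a median of 0.20, and 0 passed the adjusted test. There were 3 with an unadjusted p under 0.05 (14.3%, beside 7.65% of all genes), all higher in DMDD liposome. DMDD liposome replicate 2 was the highest library for 13 of the 21 genes, and for 2410 of all 12891 genes tested. The list summed to 3160, 2953 and 3159 CPM in model against 3309, 3748 and 3133 CPM with DMDD liposome, so the groups overlapped. Fkbp14, a prolyl isomerase of the endoplasmic reticulum, had 176, 159 and 150 counts in model and 236, 297 and 235 in DMDD liposome (0.72 ± 0.21). P3h1 and P3h3, prolyl 3-hydroxylases, stood at 0.52 ± 0.18 and 0.48 ± 0.19. These 3 genes were named for the smallest p of the list, and the groups of each did not overlap in counts. In CPM the groups did not overlap for 5 of the 21 genes (23.8%), beside 12.9% of all genes tested.

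Among 16 tested genes of procollagen processing and cross-linking, 9 were positive and 7 negative (median 0.02), 0 passed the adjusted test, and 3 had an unadjusted p under 0.05 (18.8%, beside 7.65% of all genes). Fmod, a small proteoglycan that binds collagen fibrils, had 14, 22 and 5 counts in model and 101, 68 and 22 in DMDD liposome (2.28 ± 0.69). Tgm2, which cross-links matrix proteins, stood at 0.72 ± 0.22, and Loxl4, a lysyl oxidase relative that cross-links collagen, at -0.71 ± 0.22. Of 11 collagen receptors, 6 were positive and 5 negative (median 0.02). Itga2, the integrin subunit for collagen on epithelial cells, had 1282, 2020 and 2653 counts in model and 1215, 1196 and 1452 in DMDD liposome (-0.55 ± 0.20). It was the 1 receptor with an unadjusted p under 0.05 (9.09%), near the 7.65% of all genes.

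Of 12 tested genes of collagen breakdown and uptake, 7 were positive and 5 negative (median 0.03), and Timp3, an inhibitor of matrix proteases, stood at 0.87 ± 0.29. Fap, a protease of activated fibroblasts, had 41, 97 and 62 counts in model and 162, 152 and 77 in DMDD liposome (1.06 ± 0.39). Basement membrane partners of type IV collagen, such as laminins, were read last. Of 15 genes, 10 were negative and 5 positive (median -0.15), and 6 (40.0%, beside 7.65% of all genes) had an unadjusted p under 0.05, 5 lower and 1 higher. Lama5, a laminin chain of epithelium and vessels, had 15823, 16283 and 20979 counts in model and 12601, 10466 and 14664 in DMDD liposome (-0.44 ± 0.15). Lama1, an early embryonic laminin chain, stood at 1.27 ± 0.44. The summed level of the 15 partners was 5424 ± 315 CPM in model against 4358 ± 169 CPM with DMDD liposome (SD, n = 3 each), without overlap. Epithelial tumor cell markers also had a lower mean sum, at 5777 ± 1475 CPM in the model libraries and 4334 ± 456 CPM in the DMDD liposome libraries, with overlap (SD, n = 3 each). Of these 9 markers 7 were negative (median -0.54). An unadjusted p under 0.05 was found for 4 of the 9 (44.4%, beside 7.65% of all genes), all lower. The part of these markers in the partners' levels was not tested. edgeR's adjusted test called 0 tested members of the receptor, breakdown and basement membrane partner lists. The authors' deposited table covers all 14 genes of the breakdown list, of which edgeR tested 12. The authors' table called 1 of the 14, Mmp1a, a collagenase, beside 0.346% of all genes.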

How the data were processed

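Tumor RNA was sequenced in 6 libraries, 3 per group. Read counts per gene were deposited by the authors; the build mm9 and DESeq2 are named per the submitters' processing notes, while no source used here states the aligner, counter, annotation or strand. The deposited table also holds FPKM values, a size-factor normalized signal, log2 fold changes and p-values of the authors' DESeq2 comparison. Those fold changes are model over DMDD liposome, and are printed here only where the authors' table is named.

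From the counts, CPM was computed on library totals scaled by edgeR's TMM factors; shares of counts and the level of 3 counts use the totals themselves. Differences were tested with edgeR 4.0.16 in R 4.3.3 (TMM, filterByExpr with a minimum count of 10 and total of 15, quasi-likelihood test, Benjamini-Hochberg adjustment, threshold 0.05) over 12891 genes, 3872 being too low. The scripts were tested on simulated data. DESeq2 1.42.0, limma 3.58.1 (voom with quality weights), other size factors, no filter, a threshold of 0.01, a replicate block and leaving out each library were alternatives.

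The members and gene lists were chosen with earlier results of these data known. Members shown in every library were up to 8 per class with the highest CPM, those with an unadjusted p under 0.05 and those with 1 outlying library; from each other list up to 3 genes with the smallest p were named, except 1 gene that is not reported here. Others (such as low chains, Postn, Krt5 and pairs for ratios) were chosen after their values were seen. Schwann cell markers summed to 53.7 to 73.8 CPM and were not used further. Intervals implied by 3 counts cover counting error only.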

Additional observations from a re-analysis of the deposited data

How the results depend on the processing

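No collagen chain passed the adjusted test in any setting, 0.01 included; the smallest adjusted p was 0.0676 with DESeq2 and 0.0832 without model replicate 1, both for Col23a1. Over all genes edgeR called 0, DESeq2 called 59, and leaving out 1 library gave 0 to 112, the highest without model replicate 1. Chains with an unadjusted p under 0.05 numbered 6, and 5 with DESeq2 size factors, 8 without a filter, 10 with DESeq2, 13 with limma-voom and 3 to 11 with 1 library left out. Over all genes the numbers were 986, and 987 with DESeq2 size factors, 1248 without a filter, 1175 with DESeq2 and 1529 with limma-voom. With 1 library left out they ran from 480 to 2150. The fibrillar median of 0.282 ran from -0.355 to 0.495 with 1 library left out and was -0.068 with limma-voom. For the other types the median of -0.426 ran from -0.632 to -0.180 with 1 library left out. It was -0.123 without a filter, -0.115 with DESeq2 and -0.553 with limma-voom. With 1 library left out, log2 fold changes ran from -0.82 to 0.35 for Col12a1, -1.87 to 0.06 for Col17a1, -0.41 to 0.50 for Col1a1, -0.36 to 0.58 for Col1a2, -0.54 to 0.31 for Col27a1, -0.29 to 0.82 for Col3a1, -0.09 to 0.36 for Col4a1, -0.12 to 0.36 for Col4a2, -0.39 to 0.44 for Col5a1, -0.14 to 0.66 for Col5a2 and -0.84 to 0.14 for Col5a3. With limma-voom they were -0.50 for Col12a1, -0.15 for Col1a1, -0.07 for Col1a2, -0.33 for Col27a1 and -0.15 for Col5a1. The cause was not tested. These settings were read singly for 25 of the 32 tested chains, and the other 251 values of those chains kept their direction. Directions of the remaining tested chains, Col2a1 and Col14a1 among them, were not compared.

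With the replicate number as a replicate block, 0 genes and 0 chains were called. In that fit 12 chains had an unadjusted p under 0.05, beside 1111 of all 12891 genes. Col12a1 and Col27a1 turned to -0.21 and -0.07. Same-numbered libraries correlated at 0.0876, 0.114 and 0.121 in their deviations from the group means, and every library correlated best with its own number. This is a hint from the data, not the design, and the numbers were not taken to pair the samples.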
